A study of Mus musculus with 8 samples.

Results

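The genes described here are those for the proteins that cut ErbB4 and those that act with its freed intracellular domain in the nucleus. They were chosen by name, for their roles, as the sheddase Adam17, the gamma-secretase subunits Psen2, Ncstn, Aph1a and Psenen, and the nuclear partners Tab2, Ncor1, Yap1 and Stat5b. These are 9 of the 23284 gene symbols in the deposited count files, and all 9 passed the filter on low counts. RNA-seq was performed on dorsal cortex of E15.5 mouse embryos (C57BL/6), in 4 WT libraries and 4 libraries labelled ErbB4-/-. The ErbB4-/- mice lack ErbB4 and survive because a transgene expresses it in the heart from the alpha-MHC promoter. Each line was bred as homozygotes, the meninges and ganglionic eminences were dissected away, and polyA RNA was read without strand information as single 50-nucleotide reads. The litters are not given, so p-values measure the spread between these libraries, which may in part be technical.

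ErbB4 is a receptor tyrosine kinase for neuregulins that can also signal by regulated intramembrane proteolysis. ADAM17, also called TACE, sheds the ectodomain of the JMa isoform, and gamma-secretase then cuts the remaining stub within the membrane. The freed intracellular domain moves to the nucleus, where it can form a complex with the adaptor TAB2 and the corepressor NCoR that represses glial genes in neural precursors, and where it can also bind YAP or the transcription factor STAT5.

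The substrate differs between isoforms in a single alternative exon, shown here because it decides whether the sheddase can act. The gene Erbb4 is on chromosome 1, minus strand (NCBIM37, mm9), and its 4 annotated coding transcripts hold either exon 16a (2 transcripts) or exon 16b (2 transcripts). Exon 16a, chr1:68336817-68336891, has 75 nucleotides, and the capitals mark the histidine and serine codons of the putative TACE site at bases 50 to 55. In the study's mice, mutating these codons left the cleaved fragment detectable. Exon 16b, chr1:68337013-68337057, has 45 nucleotides and encodes the JMb isoform, which TACE does not cut. Both are given 5′ to 3′ on the coding strand.
Exon 16a: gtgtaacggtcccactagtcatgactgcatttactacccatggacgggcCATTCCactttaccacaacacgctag
Exon 16b: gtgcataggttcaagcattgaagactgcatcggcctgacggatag
The deposited counts are summed per gene, so the share of Erbb4 transcripts that carry the cleavable exon was not measured here.

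Between 28205703 and 38346416 reads were counted per WT library and between 31574536 and 48871480 per library labelled ErbB4-/-, and values below are CPM (counts scaled to a common library size) after TMM normalization unless stated. Erbb4 itself was at 8.99, 19.9, 25.3 and 19.2 CPM in the WT libraries 1 to 4 and at 20.9, 24.6, 20.7 and 23.5 CPM in those labelled ErbB4-/-, so the targeted gene was not lower in the latter (log2 fold change 0.28, adjusted p = 0.812, edgeR's quasi-likelihood test with Benjamini-Hochberg adjustment). For Erbb4, WT replicate 1 was the lowest of the 8 libraries and pulled down the WT mean, so the size of this estimate depends on it. The other WT values overlapped those of the libraries labelled ErbB4-/-. Counts summed over the gene do not separate the disrupted part of the transcript, and the labels are used below as given. Xist was at 983 to 1687 CPM in WT replicates 1 to 3 and at 2.70 to 3.82 CPM in the other 5 libraries, in which the Y-linked gene Ddx3y was at 76.4 to 80.9 CPM, so sex and genotype are largely confounded and their effects cannot be told apart. WT replicate 1 stood apart from the other libraries in a way that followed gene length, described below with the genes it touches. The labelled tissue was checked by its markers, and 6 cortical neuron genes summed to 6501 to 7077 CPM. The sums for other cells were lower, at 454 to 639 CPM for 7 ganglionic eminence and interneuron genes, 8.47 to 14.2 CPM for 5 meningeal genes, 146 to 159 CPM for 6 endothelial and pericyte genes and 37.0 to 44.8 CPM for 5 microglial genes. The sum of 6 red blood cell genes, of which 1 was at 0, was 31.8 to 56.6 CPM in WT and 20.8 to 35.2 CPM in ErbB4-/- libraries (exact two-sided permutation test, p = 0.0571), and its part in the results was not tested. In bulk tissue, fewer cells of a type and less RNA per cell cannot be told apart.

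None of the 9 genes differed between the genotypes by more than the spread of the libraries. By edgeR's quasi-likelihood test with Benjamini-Hochberg adjustment over 14696 genes, 0 of 9 passed an adjusted p of 0.05, against 4 of all genes tested (0.0272%). At an unadjusted p under 0.05 the count was also 0 of 9, against 5.53% of all genes, and DESeq2 and limma-voom called 0 of 9, with 0.163% of all genes called by DESeq2. With a library left out, edgeR gave Psenen an unadjusted p = 0.0407 (adjusted p = 0.525) without WT replicate 2, and Yap1 an unadjusted p = 0.0271 (adjusted p = 0.576) without ErbB4-/- replicate 4. No other gene of the 9 was under 0.05 in any alternative. The WT and ErbB4-/- values overlapped for 9 of 9 genes, and 3.34% of all genes had groups that did not overlap. The log2 fold changes of ErbB4-/- over WT were positive for 3 genes and negative for 6, with a median of -0.06 beside -0.0022 over all genes. The exact permutation test over the 70 assignments of 8 libraries, which cannot give a p below 0.0286, gave values from 0.2 to 0.943 for these genes.

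**Figure D1:**
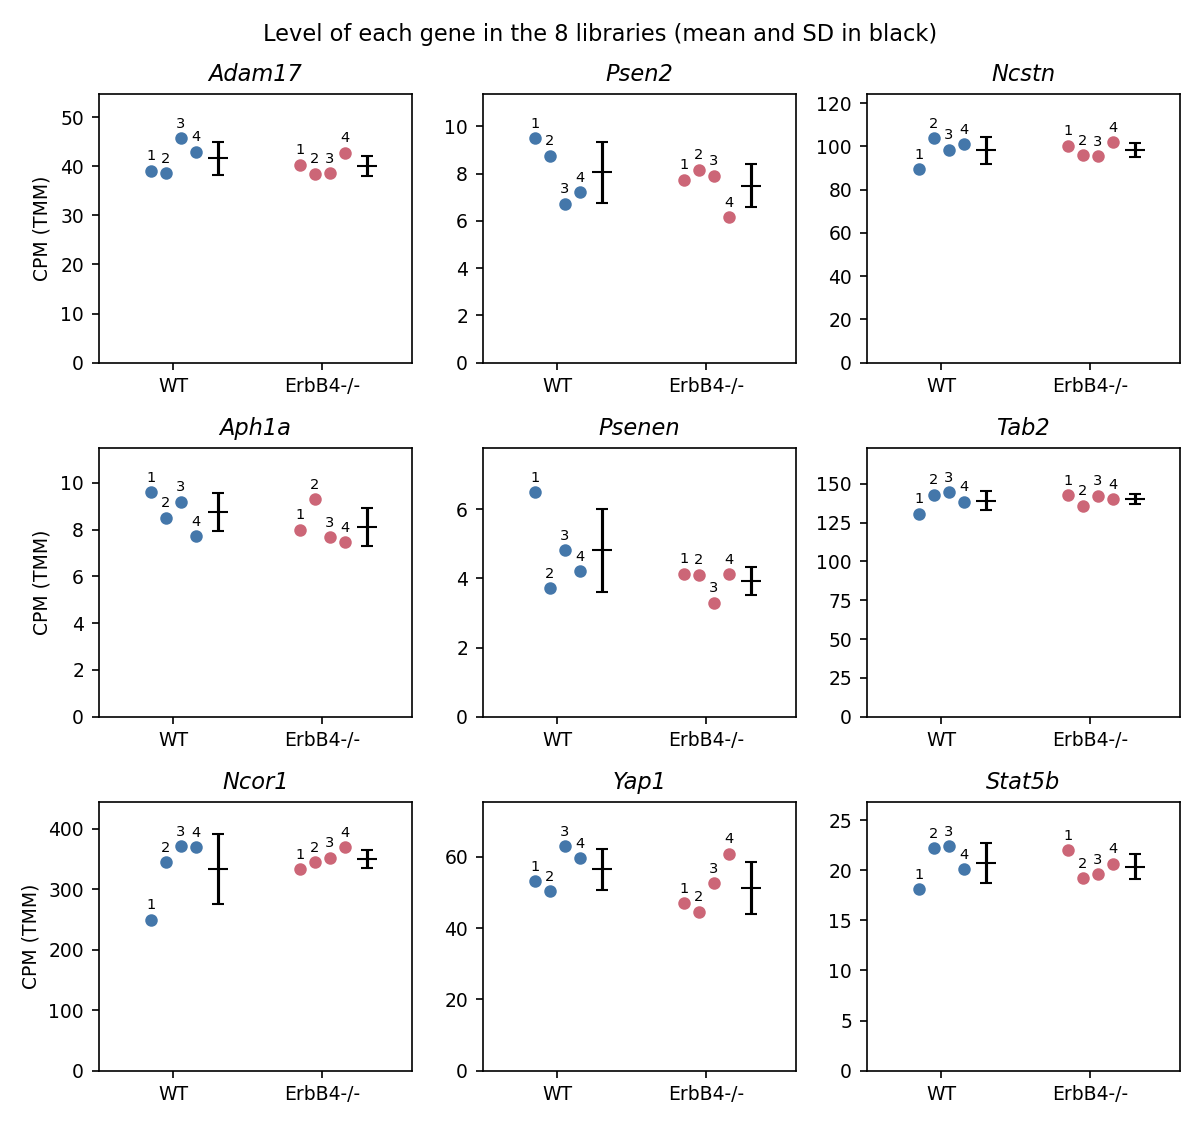
CPM after TMM normalization (vertical axes, each from 0) of the 9 genes in WT (blue) and ErbB4-/- (red) libraries, numbered by replicate, with the group mean and SD in black (n = 4). The groups overlap in every panel, and WT replicate 1 is the highest point for Psenen (6.49 CPM) and the lowest for Ncor1 (249.6 CPM).

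Adam17 encodes the metalloprotease that makes the first cut. It lies at chr12:21329370-21379493 on the minus strand. Adam17 was at 39.1, 38.6, 45.7 and 42.9 CPM in the WT libraries and at 40.3, 38.5, 38.6 and 42.8 CPM in the ErbB4-/- libraries. The highest value came from WT replicate 3 and the lowest from ErbB4-/- replicate 2, and 7 of the 8 values lay between 38.5 and 42.9 CPM. The means were 41.6 ± 3.34 and 40.0 ± 2.02 CPM (SD, n = 4). The log2 fold change was -0.06 (SE 0.072, edgeR adjusted p = 0.863), with a 95% interval from -0.21 to 0.10, or 0.862 to 1.07 times the WT level. With each library left out in turn the Adam17 estimate ran from -0.09 to -0.0077, the latter without WT replicate 3. Larger changes than these in Adam17 RNA lie outside the interval, and the protein and its activity were not measured.

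Of the gamma-secretase subunits, Ncstn was the most evenly expressed in both genotypes. By coefficient of variation, Psenen was the most variable in WT (25.1%) and Psen2 in ErbB4-/- libraries (12.1%, beside 10.5% for Psenen). Nicastrin, encoded by Ncstn (chr1:173996144-174012926, minus strand), is the subunit that receives the substrate. Ncstn was at 89.4, 103.7, 98.4 and 101.1 CPM in WT and at 100.3, 95.8, 95.4 and 101.8 CPM in ErbB4-/- cortex. WT held both the lowest and the highest value, and the ErbB4-/- values lay between them. The means, 98.2 ± 6.22 and 98.4 ± 3.22 CPM (SD, n = 4), gave a log2 fold change of 0.0025 with a 95% interval from -0.13 to 0.13 (SE 0.059, edgeR adjusted p = 0.993).

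Psen2 encodes one of the presenilins, the catalytic subunits that cut within the membrane. The gene lies at chr1:182157135-182193569 on the minus strand, 113 Mb from Erbb4 on the same chromosome, and Ncstn lies 104.8 Mb from it. Psen2 was at 9.49, 8.76, 6.73 and 7.21 CPM in WT and at 7.73, 8.16, 7.91 and 6.16 CPM in ErbB4-/- libraries. WT replicates 1 and 2 were the highest of the 8 and ErbB4-/- replicate 4 the lowest, while WT replicates 3 and 4 lay below the other 3 ErbB4-/- libraries. The means were 8.05 ± 1.30 and 7.49 ± 0.903 CPM (SD, n = 4), and the log2 fold change of -0.10 (SE 0.135, edgeR adjusted p = 0.873) had a 95% interval from -0.39 to 0.20. Without WT replicate 1 the estimate was -0.0082, and without WT replicate 3 it was -0.18. The interval was wider than that of Ncstn, with 194 to 381 counts per library for Psen2 and 2507 to 4942 for Ncstn.

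Aph1a encodes a scaffold subunit that holds the complex together during assembly. It lies at chr3:95697892-95702211 on the plus strand, and 15.54% of its exon bases overlap Car14 on the other strand, whose reads cannot be told apart without strand. Aph1a was at 9.59, 8.50, 9.20 and 7.72 CPM in WT and at 7.999, 9.31, 7.68 and 7.46 CPM in ErbB4-/- libraries. The groups were interleaved, with WT replicate 1 highest and ErbB4-/- replicate 4 lowest. The means were 8.75 ± 0.824 and 8.11 ± 0.825 CPM (SD, n = 4), and the log2 fold change was -0.11 (SE 0.109, edgeR adjusted p = 0.832) with a 95% interval from -0.35 to 0.13. It was -0.18 without ErbB4-/- replicate 2 and -0.06 without WT replicate 1.

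Psenen encodes PEN-2, the small subunit needed for presenilin to be cut into its active form. It lies at chr7:31346887-31348203 on the minus strand. Psenen was at 6.49, 3.72, 4.82 and 4.22 CPM in WT and at 4.14, 4.11, 3.30 and 4.13 CPM in ErbB4-/- libraries. WT replicate 1 was far above all others, ErbB4-/- replicate 3 was the lowest, and WT replicate 2 lay below 3 of the ErbB4-/- libraries. The means were 4.81 ± 1.21 and 3.92 ± 0.411 CPM (SD, n = 4). This was the largest difference of the 9 genes, a log2 fold change of -0.29 (SE 0.173, edgeR adjusted p = 0.810) with a 95% interval from -0.67 to 0.09, or 0.628 to 1.06 times the WT level. Without WT replicate 1 it was -0.12, and without WT replicate 2 it was -0.40 (edgeR adjusted p = 0.525), so single WT libraries set its size. Without WT replicate 1 the difference of Yap1, at -0.17, was larger than that of Psenen.

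The values of Psenen and Aph1a carry a further uncertainty, because much of their RNA matches other places in the genome. Of the 599 windows of 50 nucleotides, the read length, in the longest Psenen transcript, 500 (83.5%) occurred elsewhere in mm9 without a mismatch, 498 of them at the pseudogene Gm12396 (chr4:40722166-40722762) and 288 at a place within a protein-coding gene, where a window can occur at both. For Aph1a the count was 1891 of 2814 windows (67.2%), 1838 of them at the pseudogene Gm15429 (chr1:163655667-163657818) and 248 at the protein-coding gene Jagn1. Neither pseudogene has a row in the count files, and the sources used here do not state how reads with several matches were counted, so the levels of these genes are uncertain. Stat5b shared 9.20% of its windows, all with Stat5a, and Ncor1, Tab2 and Yap1 shared 2.76%, 2.31% and 1.68%. Adam17, Psen2 and Ncstn shared none of their windows. Exon overlap with another annotated gene was 4.91% for Ncstn (with Copa), 1.36% for Adam17 (with Iah1), 1.25% for Yap1, 0.686% for Ncor1 and 0 for the other 4 genes besides Aph1a.

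Among the nuclear partners, Tab2 was nearly the same in all 8 libraries, Ncor1 and Stat5b were lowest in WT replicate 1, and Yap1 had the lowest mean in ErbB4-/- cortex relative to WT. TAB2, an adaptor of the kinase TAK1, links the ErbB4 intracellular domain to NCoR. Tab2 (chr10:7625451-7676028, minus strand) was at 130.8, 143.0, 144.5 and 138.5 CPM in WT and at 142.6, 135.8, 142.4 and 140.1 CPM in ErbB4-/- libraries. The ErbB4-/- values all lay within the WT range, whose lowest value was WT replicate 1. The means were 139 ± 6.15 and 140 ± 3.17 CPM (SD, n = 4), and the log2 fold change of 0.01 (SE 0.050, edgeR adjusted p = 0.971) had the narrowest 95% interval of the 9 genes, -0.10 to 0.12.

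Ncor1 encodes NCoR, the corepressor that brings histone deacetylase to its targets. It lies at chr11:62129928-62272043 on the minus strand. Ncor1 was at 249.6, 344.9, 371.1 and 370.2 CPM in WT and at 333.2, 344.5, 352.4 and 370.0 CPM in ErbB4-/- libraries. WT replicate 1 lay below all others, and the remaining 3 WT values overlapped the ErbB4-/- values. The means were 334 ± 57.5 and 350 ± 15.497 CPM (SD, n = 4), and the log2 fold change was 0.07 (SE 0.107, edgeR adjusted p = 0.891) with a 95% interval from -0.17 to 0.30. Without WT replicate 1 the sign turned, to -0.05 (SE 0.045).

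Yap1 encodes YAP, the Hippo pathway coactivator that works through TEAD factors and can be joined by the ErbB4 intracellular domain. It lies at chr9:7931999-8004596 on the minus strand. Yap1 was at 53.1, 50.3, 62.9 and 59.7 CPM in WT and at 47.1, 44.6, 52.6 and 60.9 CPM in ErbB4-/- libraries. The lowest values came from ErbB4-/- replicates 1 and 2, but ErbB4-/- replicate 4 exceeded 3 of the WT libraries. The means were 56.5 ± 5.81 and 51.3 ± 7.21 CPM (SD, n = 4), and the log2 fold change was -0.14 (SE 0.103, edgeR adjusted p = 0.810) with a 95% interval from -0.37 to 0.08. Its estimate was negative in each of the 18 alternative analyses, from -0.24 without ErbB4-/- replicate 4 to -0.08, and its adjusted p was at least 0.544 in all of them.

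Stat5b encodes one of a pair of STAT5 transcription factors, which the intracellular domain can accompany into the nucleus. It lies at chr11:100642045-100712038 on the minus strand. Stat5b was at 18.1, 22.2, 22.4 and 20.1 CPM in WT and at 22.01, 19.2, 19.6 and 20.7 CPM in ErbB4-/- libraries. The ErbB4-/- values all lay within the WT range. The means were 20.7 ± 2.01 and 20.4 ± 1.25 CPM (SD, n = 4), and the log2 fold change was -0.02 (SE 0.087, edgeR adjusted p = 0.960) with a 95% interval from -0.21 to 0.17. Its paralog Stat5a was at 0.256 to 0.627 CPM, and 25.4% of the windows of its longest transcript also occur in Stat5b.

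**Figure D2:**
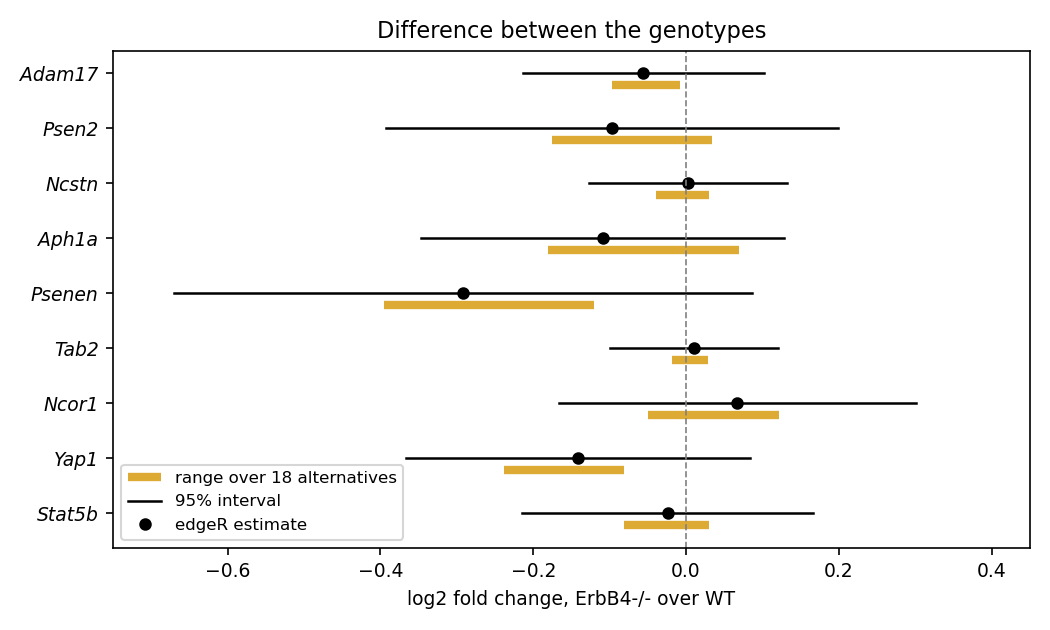
Log2 fold change of ErbB4-/- over WT (horizontal axis) for the 9 genes, with the edgeR estimate as a point, its 95% interval as a black line and the range of estimates over the 18 alternative analyses as an orange bar. All 9 intervals include 0, and the widest is that of Psenen, from -0.67 to 0.09.

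WT replicate 1 lay outside the range of the other 7 libraries for 7 of the 9 genes, the exceptions being Adam17 and Yap1. Relative to the mean of the other 7, Psenen was 1.598-fold, Psen2 1.26-fold and Aph1a 1.16-fold higher in this library. Ncor1 was at 0.703, Stat5b at 0.868, Ncstn at 0.898 and Tab2 at 0.928 times that mean. The shortest gene, Psenen with 648 annotated exon nucleotides, had the highest log2 deviation (0.68), and the longest, Ncor1 with 12820, had the lowest (-0.51). The genes between them followed length only in part, since Yap1 (9257 nucleotides) was at -0.01 and Ncstn (3975 nucleotides) at -0.15. Spearman's rho between deviation and length was -0.667 over the 9 genes, which share the library and its normalization. The same trend ran through all genes with a length, with rho of -0.525 over 14281 genes in WT replicate 1 and from 0.033 to 0.201 in the other 7 libraries. The median log2 deviation in WT replicate 1 fell from 0.27 in the shortest of 5 length classes (median length 1482) to -0.25 in the longest (median length 8224). Removing each library's trend with length left the log2 fold change of Psenen at -0.18, of Ncor1 at -0.0058 and of Yap1 at -0.20, and none of the 9 genes was called.

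**Figure D3:**
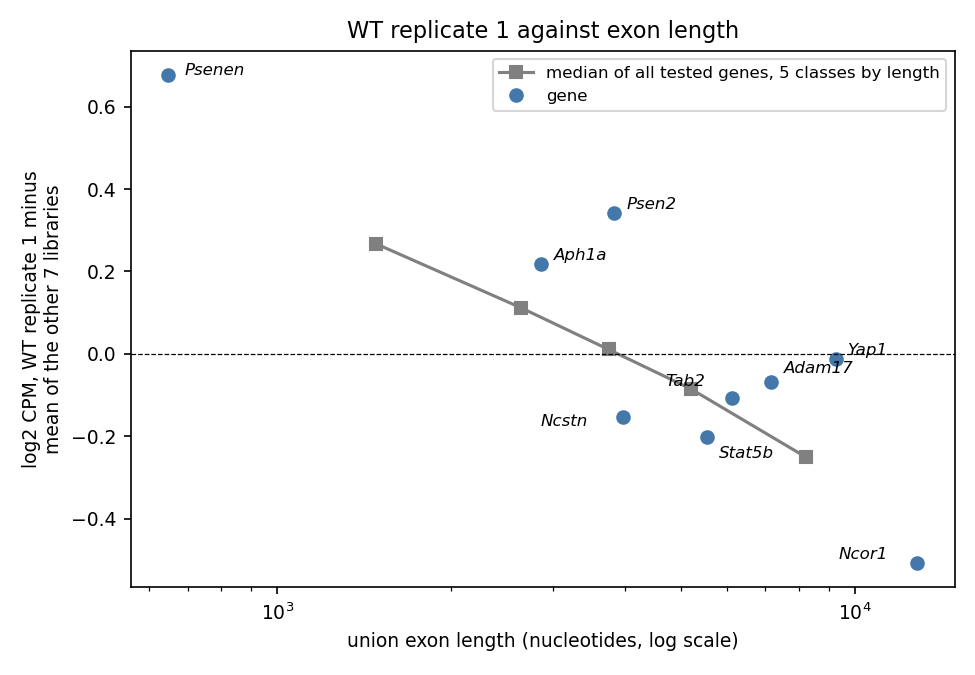
Log2 CPM in WT replicate 1 minus the mean of the other 7 libraries (vertical axis) against exon length in nucleotides (log scale). Blue points are the 9 genes and grey squares are medians of all tested genes in 5 classes by length. Psenen (0.68) and Ncor1 (-0.51) are the extremes in both deviation and length.

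The genes differed widely in how much RNA they contributed per length. On the scale of CPM per kilobase of annotated exons, the means over 8 libraries were 26.7 ± 3.12 for Ncor1, 24.7 ± 1.15 for Ncstn and 22.8 ± 0.743 for Tab2 (SD, n = 8). A middle group followed at 6.74 ± 1.48 for Psenen, 5.82 ± 0.721 for Yap1 and 5.70 ± 0.376 for Adam17, and the lowest were Stat5b at 3.71 ± 0.282, Aph1a at 2.95 ± 0.292 and Psen2 at 2.03 ± 0.281. Between neighbours in this order, the ranges over libraries were apart only for Tab2 over Psenen (3.38-fold), Adam17 over Stat5b (1.54-fold) and Aph1a over Psen2 (1.45-fold). Within libraries, Ncstn was above Tab2 in 8 of 8, and Ncor1 above Ncstn and Stat5b above Aph1a in 7 of 8. Psenen was above Yap1, and Yap1 above Adam17, in 6 of 8, so the order of Psenen, Yap1 and Adam17 is not resolved. On this scale the corepressor, the substrate receptor and the adaptor had the highest levels, and the catalytic subunit Psen2 the lowest.

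The order depended on the length used. With the longest transcript as the length, Psenen and Aph1a stayed at 6.74 and 2.95 CPM per kilobase. Yap1 (10.2) and Adam17 (9.13) then lay above Psenen, and Psen2 (3.85) lay above Aph1a. With only the windows found nowhere else as the length, a scale chosen after seeing the data, Psenen was at 44.1 ± 9.71 and Aph1a at 9.14 ± 0.907 (SD, n = 8). Psenen was above Ncor1, at 39.1, in only 5 of 8 libraries, and their ranges overlapped. This scale takes reads with several matches as uncounted, which the sources used here do not state. The means of Ncor1, Ncstn and Tab2 kept their order on all 3 scales, with ranges that overlapped between neighbours. With the longest transcript or the unique windows as the length, Ncstn was above Tab2 in only 5 of 8 libraries.

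**Figure D4:**
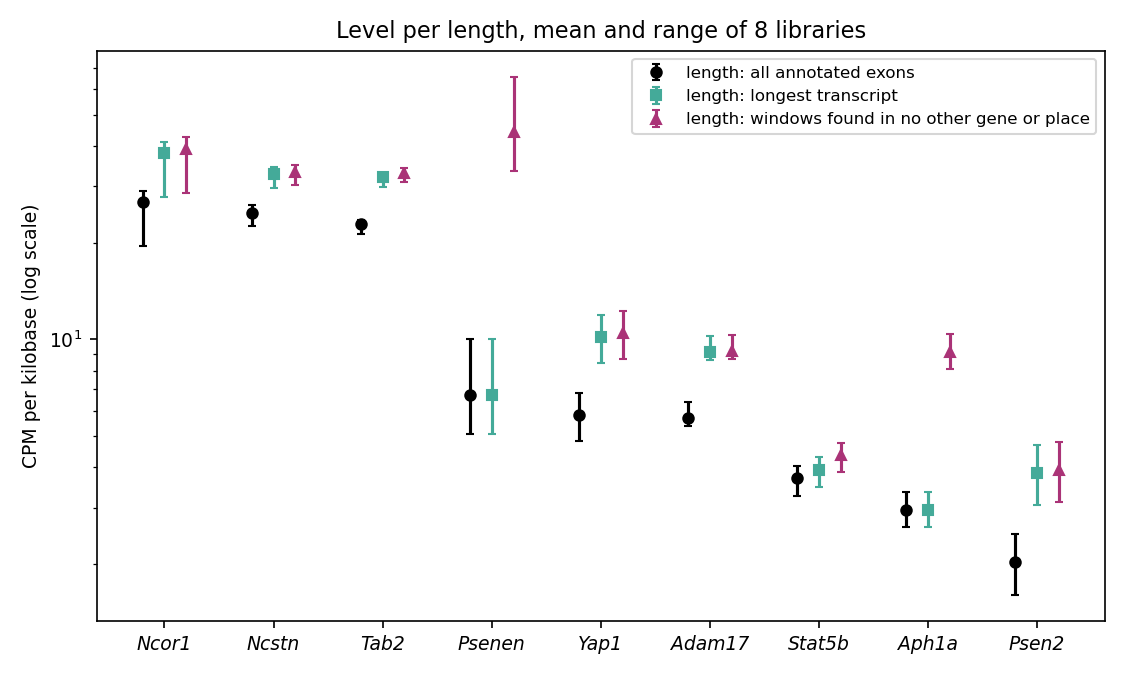
CPM per kilobase (log scale) of the 9 genes, mean and range over the 8 libraries, with length taken as all annotated exons (black), the longest transcript (green) or the number of 50-nucleotide windows found nowhere else (purple). The 3 scales lie close together for Stat5b. For Psenen and Aph1a the black and green values are the same and the purple value lies far above them.

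The genes also differed in their spread between libraries of one genotype. Tab2 had a biological coefficient of variation, edgeR's estimate of spread beyond counting error, of 6.02%, and 2.27% of all tested genes had a lower one. Ncstn (6.81%), Adam17 (7.90%) and Stat5b (9.18%) were below the common value of 10.7%. Aph1a (10.7%), Yap1 (10.8%) and Ncor1 (11.1%) were near it, and Psen2 (13.2%) and Psenen (16.4%) were above it, with 82.2% of genes lower than Psenen. For Ncor1 the coefficient of variation of CPM was 17.2% in WT, where replicate 1 was far lowest, and 4.43% in ErbB4-/- libraries.

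How the genes varied together over the 8 libraries is given as a description, since all points share library, depth and the length trend of WT replicate 1. Pearson's r of log2 CPM between pairs of the 9 genes ran from -0.795 (Adam17 with Psen2) to 0.874 (Tab2 with Stat5b) over 36 pairs, with a median of 0.196. Adam17 and Yap1 had r of 0.836, and 0.858 without WT replicate 1. Ncor1 and Yap1 had r of 0.312 with all libraries and 0.934 without WT replicate 1, whereas Ncstn and Ncor1 went from 0.774 to 0.107. Pairs of the 4 gamma-secretase subunits had both signs, with r from -0.609 (Ncstn with Psenen) to 0.658 (Aph1a with Psenen). Without WT replicate 1 those pairs had r of 0.175 and 0.438, and Psen2 with Psenen had -0.554.

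Over all tested genes, those whose log2 CPM was most like each of the 9 were found by Pearson's r over 8 libraries. Each r is the highest among 14696 genes over only 8 points, so high values follow from the choice. How high r would be by chance was not tested. They were Eprs (0.971) and Iqgap3 (0.966) for Adam17, Ltbr (0.9754) and Pld6 (0.972) for Psen2, and Arhgef18 (0.982) and 6720401G13Rik (0.978) for Ncstn. For Aph1a they were Klf4 (0.949) and Oscp1 (0.946), and for Psenen 2610034M16Rik (0.989) and Pfdn2 (0.979). For the nuclear partners they were Wnt2b (0.968) and Plekhh2 (0.958) for Tab2, Eif4ebp2 (0.994) and Brwd3 (0.993) for Ncor1, Mlec (0.982) and Spg20 (0.978) for Yap1, and Ankfn1 (0.976) and Fgd3 (0.953) for Stat5b. Without WT replicate 1 these values ran from 0.883 (Plekhh2 for Tab2) to 0.994 (Mlec for Yap1). None of the 9 genes was among the genes most like another, which so few places among all tested genes made likely.

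Yap1 was also set beside the neural progenitors in which it is known to be expressed. The summed CPM of 6 progenitor markers was 1786, 1462, 1664 and 1659 in WT and 1392, 1341, 1442 and 1601 in ErbB4-/- libraries (exact two-sided permutation test, p = 0.0571), and 0 of the 6 was called by edgeR. Tead2, a TEAD factor of the same cells, was at 169.7, 136.8, 158.8 and 162.4 CPM in WT and at 128.1, 116.9, 126.9 and 151.7 CPM in ErbB4-/- libraries. In each of the 3 measures, ErbB4-/- replicate 4 was the highest of the ErbB4-/- libraries and replicate 2 the lowest. The part of progenitor number in the values of Yap1 was not tested.

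**Figure D5:**
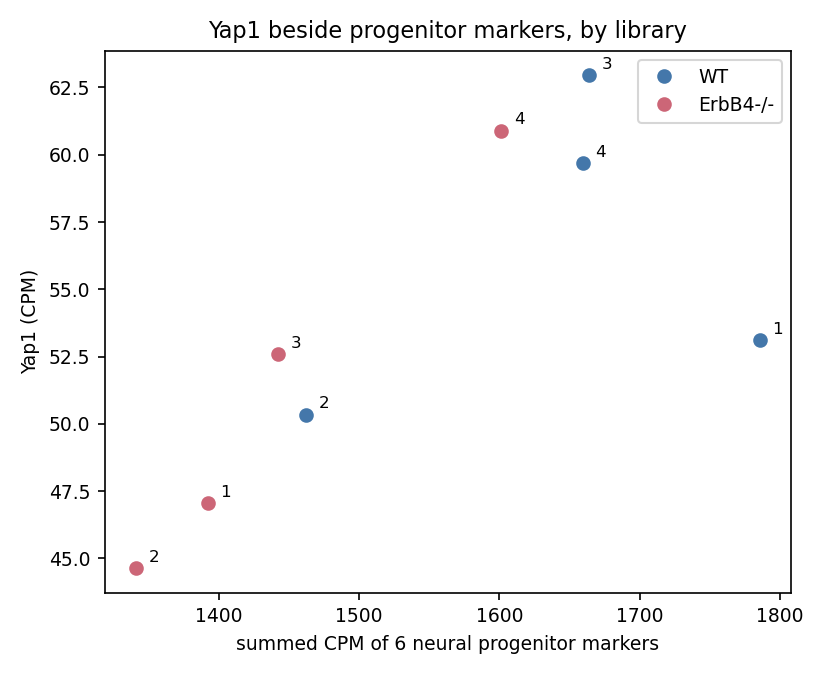
Yap1 CPM (vertical axis) against the summed CPM of 6 neural progenitor markers (horizontal axis) in the 8 libraries, WT in blue and ErbB4-/- in red, numbered by replicate; neither axis starts at 0. ErbB4-/- replicates 1, 2 and 3 lie at the lower left (44.6 to 52.6 CPM) together with WT replicate 2 (50.3 CPM), and WT replicate 1 lies at the far right, at 1786 CPM of markers.

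The other genes of the pathway were taken from a list by role, in which 76 of 79 symbols were in the files and 74 were tested. By edgeR's quasi-likelihood test 0 of 74 passed the adjusted threshold, as with DESeq2 and limma-voom, and 4 higher and 2 lower had an unadjusted p under 0.05, a threshold that 5.53% of all genes passed. With Xist as a covariate, 1 of the 74 genes passed that unadjusted threshold, and over all genes the count went from 812 to 247. Their log2 fold changes were positive for 44 and negative for 30, with a median of 0.02. Groups that did not overlap were found for 2 genes with higher and 2 with lower values in ErbB4-/- libraries, against 3.34% of all genes.

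Among 16 other sheddases and sheddase regulators, Adam10 (190.0 CPM, mean of 8), Timp2 (185.9 CPM) and Bace1 (124.7 CPM) had the highest CPM. Timp3, an inhibitor of ADAM17, was at 15.2, 19.8, 19.7 and 19.9 CPM in WT and at 21.0, 23.2, 26.8 and 21.8 CPM in ErbB4-/- libraries. All 4 ErbB4-/- values lay above the WT values, with a log2 fold change of 0.31 (SE 0.108, edgeR adjusted p = 0.810). The exact permutation p was 0.0286, the smallest the design allows. Every gene whose groups do not overlap has this p, so it adds nothing to the lack of overlap. Timp1, an inhibitor of metalloproteases, was at 0.545 to 1.32 CPM in WT and 0.264 to 0.540 CPM in ErbB4-/- libraries, again without overlap. Its log2 fold change was -1.003 (SE 0.345, edgeR adjusted p = 0.810). The Timp1 values rest on 13 to 37 counts per library, the groups nearly touched, and the highest value came from WT replicate 1. Frmd8, which stabilises the complex of iRhom and ADAM17, was at 28.91 to 30.3 CPM in WT and 27.2 to 28.88 CPM in ErbB4-/- libraries. Its groups nearly touched without overlap, and the log2 fold change was -0.09 (SE 0.060, edgeR unadjusted p = 0.166). None of these differences survived adjustment over all genes.

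Among 6 other gamma-secretase genes and regulators, Hif1a (216.8 CPM), Tmed10 (97.3 CPM) and Rer1 (81.4 CPM) had the highest CPM. Aph1c, which encodes an alternative scaffold subunit, had a log2 fold change of 0.37 (SE 0.141, unadjusted p = 0.0234, edgeR adjusted p = 0.810), from 2.98 to 4.33 CPM in WT and 4.25 to 5.14 CPM in ErbB4-/- libraries. It shared 16.4% of its windows with other places, most of them with its neighbour Aph1b, for which the log2 fold change was -0.22 (SE 0.179). The sum of the pair was not tested.

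None of the partners of the nuclear factors was called. For the TAK1 and TAB genes, Map3k7 (161.2 CPM), Nlk (97.4 CPM) and Tab3 (62.3 CPM), log2 fold changes were 0.06, -0.06 and 0.14. In the NCoR complex, Trim28 was at 594.6 CPM and Hdac3 at 139.4 CPM (means of 8), and Coro2a, an actin-binding component of the complex, was at 13.6 to 16.4 CPM in WT and 17.5 to 19.8 CPM in ErbB4-/- libraries, without overlap (log2 fold change 0.25, SE 0.084, edgeR adjusted p = 0.810). Among 17 Hippo genes, Nf2 (285.3 CPM), Tead2 (143.9 CPM) and Amotl2 (132.6 CPM) had the highest CPM, and Tead2 had a log2 fold change of -0.26 (SE 0.086, edgeR adjusted p = 0.810) with overlapping groups. The YAP target genes Axl (26.9 CPM), Cyr61 (15.2 CPM) and Ctgf (3.71 CPM) had log2 fold changes of 0.01, -0.10 and 0.23 with edgeR adjusted p of 0.985, 0.811 and 0.813, and Ankrd1 was at 0 in all 8 libraries.

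Of the JAK and STAT genes, Jak2 (130.8 CPM), Jak1 (95.9 CPM) and Socs2 (58.1 CPM) had the highest CPM, with log2 fold changes of 0.09, 0.05 and 0.10. The ubiquitin ligases and WW-domain proteins that bind the intracellular domain were led by Nedd4 (1502 CPM), Nedd4l (268.2 CPM) and Rnf41 (128.4 CPM), with log2 fold changes of -0.02, 0.06 and -0.0034. The groups overlapped for each of these 6 genes.

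Gfap, the astrocyte filament gene that the TAB2 and NCoR complex is known to repress, had the lowest unadjusted p of the list. Its counts were 16, 29, 25 and 28 in WT and 93, 72, 48 and 27 in ErbB4-/- libraries. In CPM these were 0.571, 0.930, 0.652 and 0.798 against 1.89, 2.07, 1.23 and 0.858. ErbB4-/- replicates 1 to 3 lay above all WT libraries and replicate 4 lay within them, so the groups overlapped. The log2 fold change was 1.04 (SE 0.296, unadjusted p = 0.00454, edgeR adjusted p = 0.810; exact permutation p = 0.0571), which did not pass adjustment over all genes. S100b, the other glial gene of that list, was below the filter, at means of 0.193 and 0.227 CPM.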

How the data were processed

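Per the labels and the study's methods, the authors used HISAT for alignment to mm9 and HTSeq for counting per gene, in versions not given in the sources used here. The deposited count files hold raw counts, 1 per gene symbol, without normalization. A deposited DESeq2 table of the authors' own comparison (mean normalized count, log2 fold change, its standard error, Wald statistic, p-values and fold change) was not used. The 9 genes and the gene lists were chosen with earlier results of these data known.

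Counts were normalized by TMM, filtered with filterByExpr (minimum count 10, minimum total 15) and tested with glmQLFTest in edgeR 4.0.16 (R 4.3.3), with Benjamini-Hochberg adjustment over 14696 genes. All 8 libraries entered an unpaired fit of ErbB4-/- against WT. Log2 CPM had a prior count of 2. The 95% intervals are from the fit's standard errors and total degrees of freedom. Single values were compared by exact two-sided permutation tests. Exons, lengths, overlaps and repeated 50-nucleotide windows came from the GENCODE annotation and genome of NCBIM37, with 21756 of 23284 symbols placed.

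Named genes were every member, Erbb4, Xist, Ddx3y, pathway genes with an unadjusted p under 0.05 or groups that did not overlap, up to 3 of the highest mean CPM per role, and the 2 genes most like each member. Stat5a and Aph1b are named as sources of shared sequence, and Ankrd1 and S100b as members of their lists that were at 0 or not tested, a choice made with their values known. Some genes of the written lists are not reported here. Alternatives were RLE and upper-quartile normalization, DESeq2 1.42.0, limma-voom (limma 3.58.1), other filters, the replicate block, removal of the trend with length, Xist as a covariate, a prior count of 0.5 and each library left out, with DESeq2 without WT replicate 1 and the level per unique window added after seeing the data. Replicate libraries of a genotype differed by more than counting error (chi-square per degree of freedom 6.25 to 48.6), so none was merely another of that genotype read again. Whether any came from the same embryo or RNA was not tested. The fits were tested on simulated data for this comparison with 200 of 14621 genes changed, of which edgeR recovered 192 with 9 false calls, DESeq2 193 with 36 and limma-voom 189 with 9. Whether the fits would call differences as small as those of the 9 genes was not tested. Plots were made in Python 3.11.15 (matplotlib 3.10.9).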

Additional observations from a re-analysis of the deposited data

Results flagged for a closer look

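Psenen was at 3.30 CPM in ErbB4-/- replicate 3, apart from the other 3 ErbB4-/- libraries, which lay from 4.11 to 4.14 CPM. The gap was 0.959 of the range of the group, above Dixon's 95% critical value for 4 samples. In all, 24 groups of values were checked in this way and 1 stood out, and chance alone gives about 1 in 20.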

How the results depend on the processing

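Of the 9 genes, 0 were called under each of the 18 alternatives, with a lowest adjusted p of 0.525 (edgeR, Psenen without WT replicate 2), and of the 74 pathway genes 0 were called under each of them. The signs of Adam17, Psenen and Yap1 held in all 18, those of Psen2 and Aph1a turned only with Xist as a covariate, and those of Ncstn, Tab2, Ncor1 and Stat5b turned in 5, 3, 4 and 4. The median of all genes moved to at most 0.0081 from 0. The 4 genes called over the whole table became 1 with RLE, with upper-quartile normalization, with the replicate block and with Xist as a covariate, 24 with DESeq2 and 28 with DESeq2 without WT replicate 1, an alternative added after seeing the data. They ranged from 1 to 13 with 1 library left out, with the most without WT replicate 4, and 1 without WT replicate 3 or without ErbB4-/- replicate 1, 2 or 3. WT replicate 4 was the only WT library with Ddx3y at 76.4 CPM and low Xist, so without it sex and genotype coincided fully. The cause of these changes in number was not tested. Same-numbered libraries deviated together with correlations of 0.0837, 0.135, 0.0476 and 0.0236 and correlated best with their own number in 2 of 4 cases. Such weak correlations cannot show whether the replicate numbers pair the libraries. With the replicate block, 1025 genes had an unadjusted edgeR p under 0.05, beside 812 without it. The SE fell for Yap1 (0.103 to 0.066) and Ncor1 (0.107 to 0.080), and it rose for Stat5b (0.087 to 0.099), Tab2 and Ncstn. Psenen, Aph1a and Psen2 had the fewest counts, 116 to 394 per library; the part of depth in their errors was not tested.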
